A study of Mus musculus with 8 samples.

Results

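Fc receptors are the cell-surface proteins with which leukocytes bind the constant part of antibodies, and ITAM adaptors are the small membrane chains that carry their signal inward through an immunoreceptor tyrosine-based activation motif (ITAM). The set described here was chosen by name, not by value: the mouse Fc gamma receptor genes Fcgr1, Fcgr2b, Fcgr3 and Fcgr4, the adaptor genes Fcer1g and Tyrobp, and the signalling enzyme genes Syk and Plcg2. All 8 were found among the 20681 genes of the deposited table. Of these, 7 were abundant enough to test, meaning a normalised read count of 10 or more in 4 or more libraries, and Fcgr4 was not.

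The libraries were made from poly-A RNA of the mouse knee joint. For Loxl2, a collagen-crosslinking enzyme gene, 4 libraries were labelled control and 4 knockout. All the mice are described as Acan-Cre;Loxl2 fl/fl, so that Cre made under the control of the aggrecan gene cuts the floxed Loxl2 allele in chondrocytes and other cells with active Acan. The control libraries, named Vehicle_DMM_LOXL2wt, are described as vehicle-treated, and those labelled knockout are named KO_DMM_LOXL2ko. What the second group was given, and whether Cre needed an inducing agent, is not given in the sources used here. Both sets of names carry DMM, the usual short form for surgical destabilisation of the medial meniscus. Age, strain background and whether a library is 1 animal or a pool are not given in the sources used here, so p-values measure the spread between these libraries only.

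In macrophages and related myeloid cells, the activating receptors encoded by Fcgr1, Fcgr3 and Fcgr4 signal through the common gamma chain, the product of Fcer1g. Tyrobp encodes DAP12, the adaptor of TREM2 and several other receptors of macrophages and osteoclasts. Src family kinases phosphorylate the tyrosines of the motif, the kinase Syk docks there, and phospholipase C gamma 2 (Plcg2) is among the enzymes it switches on. Fcgr2b encodes the inhibitory receptor, which carries an inhibitory motif (ITIM) in place of an activating one and recruits phosphatases. Both adaptors are also known for their part in the formation of osteoclasts, the bone-resorbing cells.

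The stretches of DNA just before the transcription starts of the 4 receptor genes are printed because the activating receptors shared a short motif there that was not found in the window of the inhibitory receptor. Sequences come from RefSeq on build GRCm38.p6, which has the same coordinates as mm10, and entries were matched by symbol for 7 of the 8 genes, all but Tyrobp. The motif searched was GAGGAA, the purine-rich core bound by the myeloid transcription factor PU.1, with its reverse complement TTCCTC, in the 250 bases before each start. Capitals mark matches in the last 100 bases, written 5′ to 3′ on the strand of the gene.
Fcgr1 (chr3:96293970-96294069, minus strand): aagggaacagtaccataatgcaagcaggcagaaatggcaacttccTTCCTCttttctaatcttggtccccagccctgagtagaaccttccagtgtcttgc
Fcgr3 (chr1:171059395-171059494, minus strand): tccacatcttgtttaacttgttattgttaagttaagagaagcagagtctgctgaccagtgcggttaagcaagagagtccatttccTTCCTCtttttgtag
Fcgr4 (chr1:171018826-171018925, plus strand): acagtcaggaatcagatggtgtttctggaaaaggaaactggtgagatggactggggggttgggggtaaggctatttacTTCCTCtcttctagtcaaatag
Fcgr2b (chr1:170976072-170976171, minus strand): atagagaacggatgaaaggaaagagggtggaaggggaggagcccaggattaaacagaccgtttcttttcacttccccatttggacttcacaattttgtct
The match begins 55 bases before the start of Fcgr1, 15 bases before the start of Fcgr3 shown and 22 bases before that of Fcgr4. Fcgr3 has another annotated start, for which the same match begins 6 bases before. No match was found in the windows of Fcgr2b, Fcer1g and Plcg2 or at the upstream start of Syk, whereas the other annotated start of Syk had 1 in the forward orientation. Of the 27025 promoter windows of that length, the first listed start of each gene, 23.1% held the motif in either orientation. The windows of Fcgr2b and Fcgr3 lie inside the annotated spans of these genes given below, so starts further upstream were not searched. The shorter GGAA, part of the motif, also occurs in the Fcgr2b stretch. A match is a description of these letters and was not tested as a binding site.

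On mm10, 4 of the genes lie close together on chromosome 1. Fcgr2b spans 170958617 to 170976547, Fcgr4 171018920 to 171029761, Fcgr3 171051174 to 171064935 and Fcer1g 171229572 to 171234365. Fcgr1 lies on chromosome 3 (96282909 to 96293969), Tyrobp on chromosome 7 (30413760 to 30417585), Plcg2 on chromosome 8 (117498291 to 117635142) and Syk on chromosome 13 (52583173 to 52648792). Fcgr2b is overlapped on the opposite strand by the antisense gene Gm38204 and Plcg2 by Gm27361, and the use of strand in counting is not given in the sources used here. Fcgr2b and Fcgr3 are related in sequence, but of the 1733 windows of 100 bases in the transcripts of Fcgr3 only 44 (2.54%) also occur in another gene, all of them in Fcgr2b. In Fcgr2b, 251 of 5843 windows (4.30%) occur elsewhere, those 44 among them, so few reads of that length could be assigned to the wrong receptor.

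Recovered whole reads came to 13991000 to 17411617 per library, and the 8 genes held between 1 and 428 reads each in a library. Loxl2, the targeted gene, had normalised read counts of 282, 349, 1135 and 311 in the control libraries and 893, 1468, 960.3 and 1518 in those labelled knockout, so the transcript was not lower under the knockout label and groups are named by label only. Which exons the deletion removes is not given in the sources used here. Of 14949 genes tested, 23.2% passed the limma test (Benjamini-Hochberg threshold 0.05), with 11.6% higher and 11.6% lower under the knockout label. An unadjusted limma p under 0.05 was found for 5741 of them. A second scaling divided each library by its total count, with the muscle, erythroid and neutrophil markers and the 50 most abundant genes left out of that total. It called 23.4% of genes, 18.1% higher, so that 77.6% of its calls were higher against 50% with the deposited values. It shifted the median gene by 0.15 (log2). Both the kind of scaling and the genes used differed from the deposited scaling, and the part of each was not tested. The cartilage markers Prg4 (15739 ± 9439.7 in the control group, 29779 ± 9013 under the knockout label; SD, n = 4) and Comp were present in every library. Skeletal muscle markers were abundant, with a summed count of 2341394 to 2539376 in the control libraries and 1126022 to 1586729 in those labelled knockout, led by Myh4 (584705 ± 71977 and 290797 ± 100838) and Acta1 (403793 ± 32480.3 and 253117 ± 42374).

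Transcripts of the inhibitory receptor, 1 activating receptor, both adaptors and phospholipase C gamma 2 were more abundant in the libraries labelled knockout, by 1.87-fold to 3.80-fold in the ratio of group means. The genes called were Fcgr2b, Fcgr3, Fcer1g, Tyrobp and Plcg2, 5 of the 7 tested, against a background of 11.6% of all genes called in that direction. The same 5 were called under the second scaling, which called 18.1% of genes higher, with log2 differences of 0.94 to 2.16 for the 7 genes. They were also called by DESeq2, which called 27.6% of all genes and 14.3% higher, and without the filter, where 7.99% of genes were called higher. By edgeR, which called 11.3% of genes higher, 3 of the 7 were called, as in 5 of the 8 fits on 7 libraries, namely without control replicate 2 or any 1 library labelled knockout. With the mean of skeletal muscle markers as a covariate, of whose variance the group took 85.2%, limma called 0 of the 7 and 0 of all genes, with 0 and 590 at an unadjusted p under 0.05. The log2 differences were then 0.10 for Syk, 0.43 for Tyrobp, 0.45 for Plcg2, 0.64 for Fcgr3, 0.72 for Fcer1g, 1.02 for Fcgr1 and 1.95 for Fcgr2b. Fcgr1 and Syk had higher means but were not called, and Fcgr4 was too scarce to test. None of the 8 genes had a lower mean under the knockout label. For Fcgr2b, Fcgr3, Fcer1g and Tyrobp the groups did not overlap, which was so in that direction for 11.7% of all genes tested. A rise in a whole joint can come from more cells of a type, more RNA per cell or a smaller share of muscle. Bulk libraries cannot tell these apart.

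**Figure D1:**
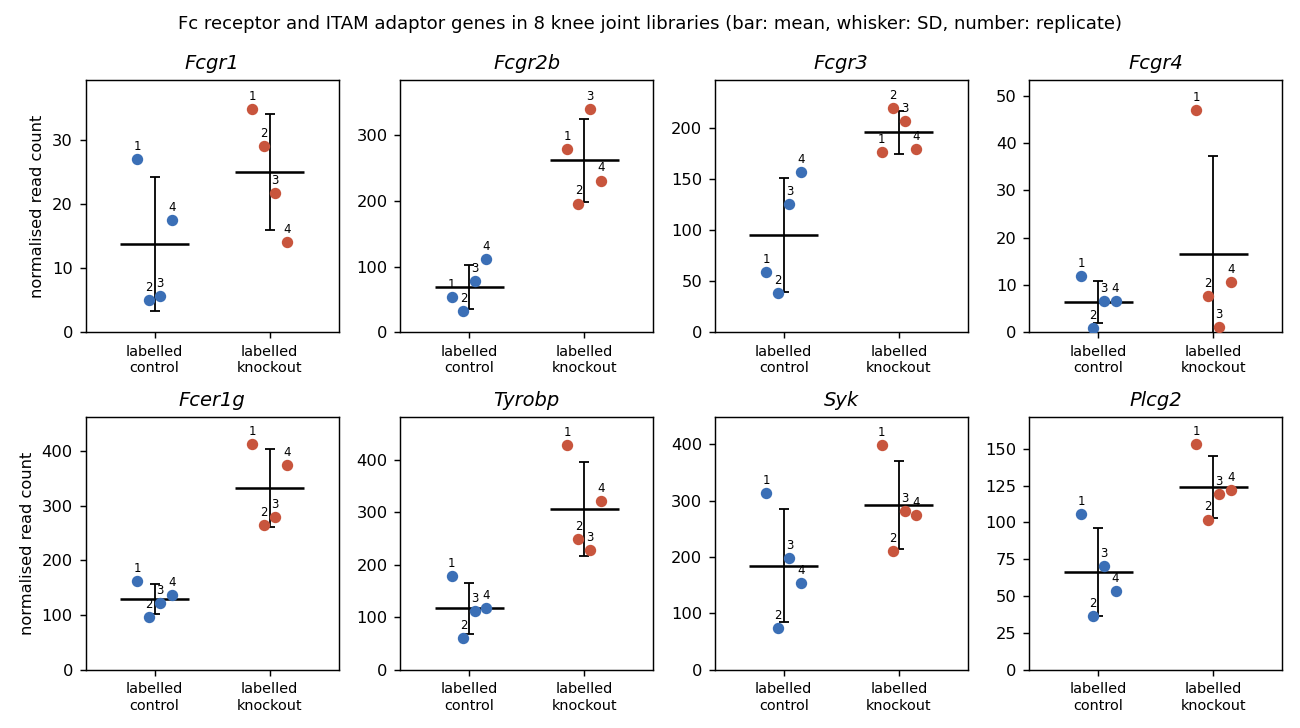
Normalised read count (vertical axis, linear, from 0) of the 8 genes in the 4 libraries labelled control (blue) and the 4 labelled knockout (red). Points are libraries numbered by replicate, the black bar is the group mean and the whisker the SD, drawn no lower than 0. Fcgr2b, Fcgr3, Fcer1g and Tyrobp show no overlap between the groups, and control replicate 2 is the lowest control library in all 8 panels.

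The inhibitory receptor showed the largest difference of the set. Fcgr2b had normalised read counts of 54.1, 32.3, 78.5 and 111 in the control libraries, in order of replicate number, and 279, 196, 340.4 and 231 in those labelled knockout. Every library labelled knockout lay above every control library. The means were 68.9 ± 33.6 and 262 ± 62.7 (SD, n = 4), and the log2 difference was 2.02 ± 0.34 (SE) (limma adjusted p = 0.00581, exact permutation p = 0.0286, the smallest that 4 libraries against 4 can give). The limma call was kept in each fit that left out a library, with adjusted p-values of 0.00640 to 0.0203.

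Among the activating receptors, Fcgr3, which encodes the low-affinity receptor for IgG complexes, was the most abundant. Its counts were 59.5, 38.4, 126 and 157 in the control libraries and 176, 219.8, 207 and 179.6 in those labelled knockout. The groups did not overlap, but the control libraries spread over a wide range and replicate 4 came close to the lowest library labelled knockout. The mean rose from 95.2 ± 55.5 to 195 ± 21.3 (SD, n = 4), and the log2 difference was 1.23 ± 0.38 (SE) (limma adjusted p = 0.0437, exact permutation p = 0.0286). The call was near the threshold: it was lost with edgeR (adjusted p = 0.0663), with the replicate number as a block (limma adjusted p = 0.0596) and without any 1 of 6 libraries. These were control replicate 1 (limma adjusted p = 0.0946) or 2 (0.0828) and knockout replicate 1 (0.0735), 2 (0.0973), 3 (0.0727) or 4 (0.0894), with log2 differences of 0.87 to 1.28.

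Fcgr1, the high-affinity IgG receptor gene, was scarce. It had 27.0, 5.05, 5.61 and 17.5 normalised reads in the control libraries and 34.9, 29.1, 21.7 and 14.1 in those labelled knockout. Control replicate 1 exceeded knockout replicates 3 and 4, and the difference did not pass the test (log2 difference 1.04, SE 0.54, limma adjusted p = 0.187, exact permutation p = 0.171). Fcgr4, a receptor for some IgG subclasses that is found on monocytes and neutrophils, was scarcer still. Its counts were 11.9, 1.01, 6.54 and 6.57 in the control libraries against 46.9, 7.70, 1.09 and 10.6 under the knockout label. A single library, knockout replicate 1, stood above the rest, and knockout replicate 3 held 1 read. The exact permutation p was 0.429, and a limma fit over the whole table without the filter gave 0.69 ± 0.88 (SE) (adjusted p = 0.649).

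The adaptors are the chains that carry the activating motif. Fcer1g, the common gamma chain gene, had counts of 162, 96.9, 122 and 136 in the control libraries and 412, 264, 279 and 374 in those labelled knockout. The highest control library lay well under the lowest library labelled knockout. The means were 129 ± 27.3 and 332 ± 71.9 (SD, n = 4), and the log2 difference was 1.36 ± 0.20 (SE), the smallest standard error among the 7 tested genes (limma adjusted p = 0.00429, exact permutation p = 0.0286). Tyrobp, the DAP12 gene, had counts of 178, 59.6, 112 and 117 against 427, 248, 227 and 322. Its groups did not overlap either, although control replicate 2 fell well under the other control libraries. Its mean rose from 117 ± 48.7 to 306 ± 90.2 (SD, n = 4), and the log2 difference was 1.44 ± 0.31 (SE) (limma adjusted p = 0.0128, exact permutation p = 0.0286). Both calls were kept in each fit that left out a library, with limma adjusted p-values of 0.00525 to 0.0162 for Fcer1g and 0.00992 to 0.0414 for Tyrobp.

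The enzymes downstream of the motif showed smaller differences. Plcg2 had counts of 106, 36.3, 70.1 and 53.7 in the control libraries and 153, 102, 119.6 and 122 in those labelled knockout. Control replicate 1 lay just above knockout replicate 2, the only overlap. Its mean rose from 66.5 ± 29.7 to 124 ± 21.1 (SD, n = 4), and the log2 difference was 0.98 ± 0.30 (SE) (limma adjusted p = 0.0395, exact permutation p = 0.0571). As for Fcgr3, the limma call was near the threshold. It was lost with edgeR (adjusted p = 0.0567) and without any 1 of 7 libraries, namely control replicate 2 (limma adjusted p = 0.0841), 3 (0.0503) or 4 (0.0909) and knockout replicate 1 (0.0942), 2 (0.0581), 3 (0.0589) or 4 (0.0897).

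Syk, the kinase that docks on the motif, had counts of 314, 73.7, 198 and 154 in the control libraries and 399, 211, 282 and 275 under the knockout label. Control replicate 1 exceeded 3 of the libraries labelled knockout. The difference of 0.80 (log2, SE 0.38) did not pass the test (limma adjusted p = 0.152, exact permutation p = 0.171). Without control replicate 1 it was 1.11 and passed (limma adjusted p = 0.0457), and it also passed with the replicate number as a block (limma adjusted p = 0.0470). A p above the threshold in the full set of libraries does not show that Syk was unchanged.

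Levels can be compared between genes only per length, here as the normalised read count per kilobase of annotated exon. On that scale the adaptors stood far above the receptors. Under the knockout label, Tyrobp was at 459 ± 135 and Fcer1g at 380.4 ± 82.2 per kilobase (SD, n = 4), which do not differ beyond their spread. Fcgr3 followed at 113 ± 12.3, then Fcgr2b at 45.2 ± 10.8, Syk at 31.1 ± 8.36, Plcg2 at 28.9 ± 4.90, Fcgr4 at 13.2 ± 16.4 and Fcgr1 at 9.64 ± 3.49. Syk and Plcg2, and Fcgr4 and Fcgr1, were within their spread of each other. In the control libraries the order began the same way, with Tyrobp at 175 ± 72.9, Fcer1g at 148 ± 31.2 and Fcgr3 at 54.8 ± 32.0, and the others lay between 5.18 and 19.8. The places of Fcgr2b and Syk depend on the length used. The annotated exons of Fcgr2b add up to 5.79 kilobases, whereas the median of its 4 protein-coding transcripts is 1520 bases. Per kilobase of median transcript, Fcgr2b was at 172 ± 41.3 under the knockout label, level with Fcgr3 at 146 ± 16. On that scale Syk was at 56.9 ± 15.3 and Plcg2 at 28.9 ± 4.90, no longer within their spread.

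Within a library, the balance between genes of the set was compared by 5 log2 ratios, which depend on the scaling of libraries only through the pseudocount of 1. The ratio of activating Fcgr3 to inhibitory Fcgr2b was 0.14, 0.24, 0.68 and 0.50 in the control libraries and -0.67, 0.17, -0.72 and -0.36 in those labelled knockout. Knockout replicates 1, 3 and 4 lay below the whole control group, and knockout replicate 2 overlapped it. Its sign compares read counts of genes of different length, not levels. The means were 0.39 ± 0.25 and -0.39 ± 0.41 (SD, n = 4), and the difference of -0.78 did not pass the test (exact permutation p = 0.0571, adjusted over the 5 ratios 0.286). It kept its direction without each library in turn, between -0.97 and -0.67.

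The other ratios overlapped widely. Tyrobp to Fcer1g was at -0.22 ± 0.35 in the control libraries and -0.14 ± 0.15 under the knockout label (exact permutation p = 0.743). Plcg2 to Syk was at -1.39 ± 0.26 and -1.2 ± 0.14 (exact permutation p = 0.286). Fcgr1 to Fcgr3 was at -2.79 ± 1.30 and -2.99 ± 0.54 (exact permutation p = 0.800), and Fcgr4 to Fcgr3 at -3.74 ± 1.02 and -4.29 ± 1.96 (exact permutation p = 0.714). Each of these 4 had an adjusted p of 0.714 or 0.800 over the 5 ratios, and the groups overlapped in each.

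**Figure D2:**
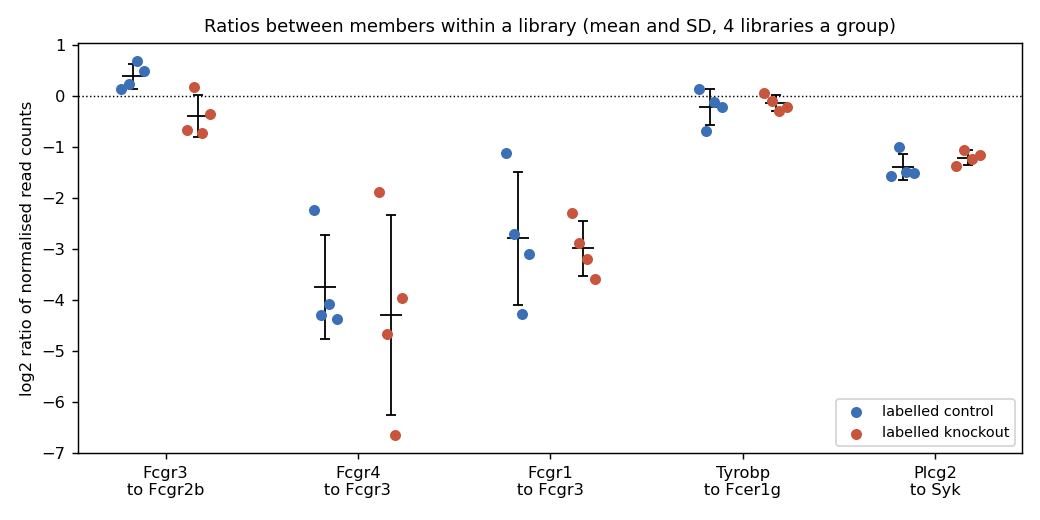
Log2 ratio of normalised read counts within a library (vertical axis) for the 5 pairs of genes, with libraries labelled control in blue and those labelled knockout in red. Points are libraries, and black marks are the mean and SD of 4 libraries. The ratio of Fcgr3 to Fcgr2b is above 0 in the 4 control libraries and below 0 in 3 of those labelled knockout. The groups overlap in all 5 pairs, for Fcgr3 to Fcgr2b through knockout replicate 2 alone. A ratio of 0 marks equal read counts, not equal levels.

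The libraries of a group ranked alike for most of the genes. Control replicate 2 was the lowest control library for 8 of 8 genes, and control replicate 1 was the highest for 6 of 8, all but Fcgr2b and Fcgr3. Knockout replicate 1 was the highest of its group for the same 6 genes, Fcgr1, Fcgr4, Fcer1g, Tyrobp, Syk and Plcg2. Averaged over the 7 tested genes and centred on the mean of the 8 libraries, the log2 level was -0.16, -1.51, -0.56 and -0.31 in the control libraries and 0.94, 0.46, 0.59 and 0.53 under the knockout label.

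Markers of the cell types that carry these transcripts differed between the groups and between the libraries as well. The summed count of 14 macrophage markers was 4658, 3097, 7205 and 6692 in the control libraries and 11391, 13076, 10536 and 15308 in those labelled knockout, and 11 of the 14 were called higher. Lyz2, the lysozyme gene, rose from 2519 ± 1253 to 5692 ± 1961 (log2 difference 1.25, SE 0.35, limma adjusted p = 0.0310), a call lost on leaving out control replicate 1 (0.0706), control replicate 2 (0.0856), knockout replicate 2 (0.0811) or knockout replicate 4 (0.0909). Csf1r, the receptor of the macrophage growth factor, rose from 501 ± 265 to 1399 ± 548 (log2 difference 1.58, SE 0.43, limma adjusted p = 0.0262, lost without knockout replicate 1 or 4). Summed osteoclast markers were 15179, 2822, 3623 and 3005 against 40665, 11195, 18675 and 30318, so control replicate 1 and knockout replicate 1, highest for the 6 genes named above, were also the highest of their groups for this list. Of the 9 osteoclast markers 7 were called higher by limma and 4 each by edgeR and DESeq2, led in abundance by Ctsk, the cathepsin K gene (2166 ± 1842 and 11089.9 ± 5793, limma adjusted p = 0.0114), and Acp5, the tartrate-resistant acid phosphatase gene (1593 ± 2274 and 6997 ± 3482, limma adjusted p = 0.0239, but 0.0979 by edgeR and 0.0748 by DESeq2). The Acp5 call was also lost on leaving out control replicate 2 (limma adjusted p = 0.0674), control replicate 4 (0.0620), knockout replicate 1 (0.0604) or knockout replicate 4 (0.0689).

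Lists of cells that are not leukocytes differed too. Fibroblast markers summed to 38275 to 118466 in the control libraries and 160628 to 262943 under the knockout label, without overlap (exact permutation p = 0.0286), and 6 of 8 were called higher, with a median of 1.49. Col1a1, a collagen chain of bone and fibrous tissue, was at 28784 ± 21107 and 76510.4 ± 12926 (limma adjusted p = 0.0214) and Col1a2 at 24149.5 ± 17733 and 63636 ± 15481. Erythroid markers summed to 15565 to 90195 and 3825 to 39155. Of the 7 erythroid markers 0 were called by limma or edgeR and 1 by DESeq2. All 7 had a lower mean and an unadjusted limma p under 0.05, which 5741 of all 14949 genes also had. Hba-a1 was at 20778 ± 14887 and 8189 ± 8573 and Hbb-bs at 18355 ± 13893 and 5893 ± 6202. The part of these lists in the result was not tested beyond the scaling to macrophage markers that follows.

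Neutrophils, mast cells, B cells and natural killer cells also carry some of these receptors and adaptors. The summed count of neutrophil markers overlapped between the groups, from 1470.3 to 5885 in the control libraries and from 1154 to 2824 under the knockout label. Of the 10 tested markers 0 were called by limma, edgeR or DESeq2. An unadjusted limma p under 0.05 was found for 1 of them, against 5741 of all 14949 genes. The abundant neutrophil genes S100a9 (912 ± 486 and 688 ± 355) and S100a8 (616 ± 356 and 459 ± 218) had lower means under the knockout label and were not called. B cell markers summed to 214 to 519 and 304 to 639, with 0 of 5 called by limma and edgeR, 1 by DESeq2 and 1 at an unadjusted p under 0.05. The list median was -0.57, and only Ebf1, a B cell transcription factor gene, had a positive log2 difference (0.61). Ebf1 was at 246 ± 68.9 and 374 ± 98.3, the largest part of mean sums of 373 and 485. Mast cell markers summed to 53.7 to 155 and 109 to 207, with 1 of 4 called, Mcpt4 (12.7 ± 7.46 and 38.0 ± 7.73). All 4 had positive log2 differences (median 1.32), and 3 had an unadjusted limma p under 0.05. Kit, the stem cell factor receptor, was at 39.4 ± 16.3 and 50.5 ± 14.4 (limma adjusted p = 0.409). Natural killer cell markers were near 0, at a summed 0 to 15.1 and 4.4 to 22.9 over the 4 of 7 genes that had a value, with Klrd1 at 5.04 ± 3.89 and 3.93 ± 4.07 and Klrb1c at 1.01 ± 1.17 and 3.25 ± 1.74. Their part in the result was not tested.

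**Figure D3:**
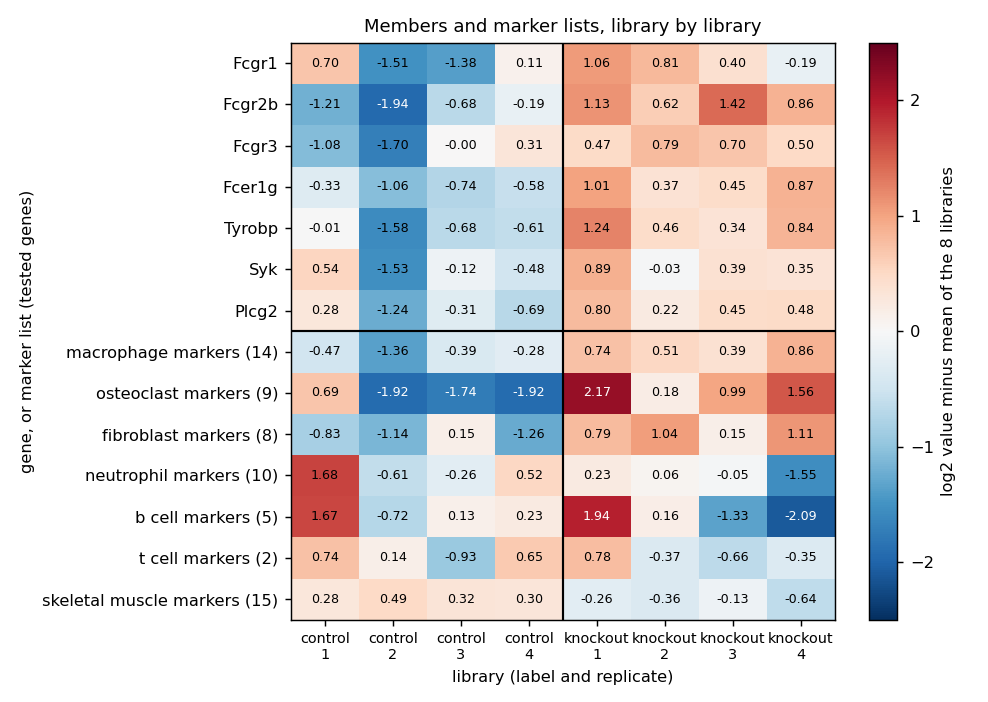
Log2 value in each library minus the mean of the 8 libraries (colour and printed number) for the 7 tested genes of the set (above the line) and for the mean of each marker list, with its number of tested genes in brackets (below the line). Columns are libraries by label and replicate. The set and the macrophage and osteoclast lists are lowest in control replicate 2 or close to it, and skeletal muscle markers are higher in the 4 control libraries than in the 4 labelled knockout.

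The set was next expressed relative to macrophages, by subtracting from each gene the mean log2 level of the 14 macrophage markers in that library and refitting all genes. On this scale 78.1% of all genes were called, 0.702% higher and 77.4% lower under the knockout label, and the median gene sat at -1.25. Of the set, Fcgr2b alone was called, at a log2 difference of 0.77 ± 0.34 (SE; limma adjusted p = 0.0343). The others lay between -0.45 for Syk and 0.19 for Tyrobp, with limma adjusted p-values of 0.199 to 0.967. Fcgr3 was at -0.02 (SE 0.34) and Fcer1g at 0.11 (SE 0.33).

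The call of Fcgr2b on this scale was not steady. It was lost when only Adgre1, Csf1r and Cd68 served as macrophage markers (log2 difference 0.42, limma adjusted p = 0.355). It was also lost without control replicate 1 (0.65, limma adjusted p = 0.113) or 3 (0.80, 0.0515) and without knockout replicate 1 (0.76, 0.0736) or 3 (0.55, 0.185). The difference was above 0 in each of these fits.

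**Figure D4:**
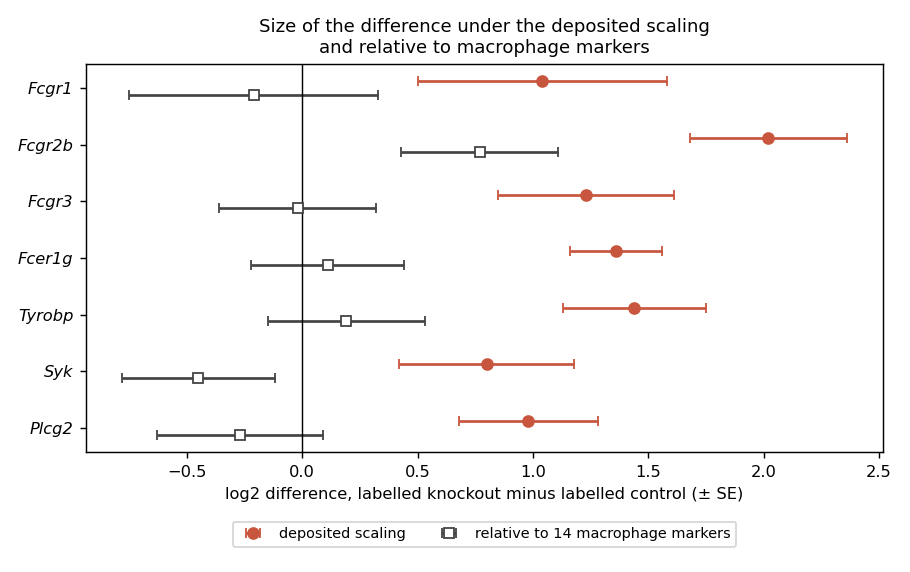
Log2 difference, knockout label minus control label (horizontal axis, bars ± SE of the limma fit) for the 7 tested genes, under the deposited scaling (filled circles) and relative to 14 macrophage markers (open squares). Under the deposited scaling the differences run from 0.80 to 2.02, and relative to the markers from -0.45 to 0.77 with Fcgr2b the highest.

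The other genes of the pathway were examined by role. Of 101 tested genes on 7 lists, 36 were called higher and 3 lower, together 38.6% against the 23.2% of all genes, and their median log2 difference was 0.76 against 0.00 for all genes tested. A total of 12 of the listed genes are also cell-type markers, such as Oscar and Nfatc1 of osteoclasts. Relative to the macrophage markers, 2 of the 101 were higher and 37 lower, with a median of -0.49. Of all genes 0.702% were higher and 77.4% lower on that scale, with a median of -1.25, so the pathway genes were called lower less often than the rest.

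The ligands of Fc receptors were compared next. The list also held the pentraxins, of which none was abundant enough to test. Of 9 tested genes, all immunoglobulin chains or Jchain, 0 were called by limma or edgeR and 1 by DESeq2 (Ighg2b). An unadjusted limma p under 0.05 was found for 0 of them, against 5741 of all 14949 genes. The list median was -0.56, and the spread was wide: Ighm, the heavy chain of IgM, was at 4181 ± 2477 in the control libraries and 2832 ± 2139 under the knockout label (log2 difference -0.65, SE 0.73, limma adjusted p = 0.550). Ighg2b, an IgG heavy chain, was at 43.0 ± 41.4 and 8.61 ± 7.74 (log2 difference -1.83, SE 0.91, limma adjusted p = 0.166). Ighd, the heavy chain of IgD, was at 25.1 ± 14.6 and 17.6 ± 20.8, and Jchain, which joins the units of IgM and IgA, at 107 ± 111 and 73.4 ± 67.5. These 4 had the smallest p-values and lower means under the knockout label, but 4 of the 9 had positive log2 differences, among them Igkc, the kappa light chain, at 515 ± 693 and 1080.3 ± 1119.9 (0.76, limma adjusted p = 0.685).

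Other Fc receptor genes were mostly too scarce, and 3 of 13 could be tested. Fcrls, an Fc receptor-like gene, rose from 41.1 ± 13.8 to 144 ± 65.3 (log2 difference 1.69, SE 0.37, limma adjusted p = 0.0130). Fcgrt, the neonatal Fc receptor that recycles IgG and albumin, rose from 1005 ± 121 to 1356 ± 132, and its log2 difference was 0.43 ± 0.11 (SE; limma adjusted p = 0.0203). With the replicate number as a block that call was lost (limma adjusted p = 0.0515), as it was on leaving out control replicate 2 (0.0559), control replicate 4 (0.0509), knockout replicate 1 (0.0532) or knockout replicate 4 (0.0617). Trim21, the cytosolic antibody receptor, was at 62.6 ± 11.6 and 66.5 ± 6.46 (limma adjusted p = 0.733).

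Other receptors signal through Fcer1g, Tyrobp or a motif of their own. Of 15 tested, 6 were called higher and 0 lower (40.0%, against 23.2% of all genes called), with a list median of 1.37. Trem2, the lipid-sensing partner of DAP12 on macrophages and osteoclasts, rose from 108 ± 21.5 to 303 ± 47.6 (log2 difference 1.49, SE 0.18, limma adjusted p = 0.00397). Itgb2, the shared beta chain of the leukocyte integrins, rose from 151 ± 63.2 to 419 ± 84.5 (1.55, SE 0.29, limma adjusted p = 0.00837), and Clec7a, the beta-glucan receptor dectin, from 17.8 ± 7.41 to 77.7 ± 36.1 (1.98, SE 0.46, limma adjusted p = 0.0154). Oscar, an osteoclast receptor that pairs with the common gamma chain, had the largest difference, from 25.0 ± 33.8 to 207 ± 149 (3.47, SE 0.75, limma adjusted p = 0.0127), and its groups overlapped. Each of these 4 calls was kept in the fits that left out a library. Relative to the macrophage markers, Oscar was still higher by 2.22 (limma adjusted p = 8.3e-07), while Trem2 (0.25), Itgb2 (0.30) and Clec7a (0.73) were not called.

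ITAM chains of other lineages include those of T and B cells. Of 5 genes tested on this list, Cd3e, a chain of the T cell receptor complex, was called lower, from 54.7 ± 20.6 to 23.1 ± 7.46 (log2 difference -1.19, SE 0.36, limma adjusted p = 0.0377). Leaving out 1 library lost the call in 6 of 8 cases, without control replicate 1 (0.0889), 2 (0.0937) or 4 (0.0782) and without knockout replicate 2 (0.0572), 3 (0.0663) or 4 (0.0847). The call was also lost under the second scaling (limma adjusted p = 0.0611). The partner chains Cd3d (1.90 ± 2.56 and 5.27 ± 7.52) and Cd3g (2.09 ± 1.56 and 6.45 ± 8.94) were too scarce to test. Their means were higher under the knockout label, so Cd3e alone does not show fewer T cell receptor transcripts. Cd247, the zeta chain, was at 26.2 ± 10.1 and 20.6 ± 11. The list also held Hcst, the gene of DAP10, an adaptor that carries no ITAM. Hcst was at 7.90 ± 9.22 and 20.2 ± 7.40 (limma adjusted p = 0.0755) and passed without control replicate 1 (limma adjusted p = 0.0147). Cd79a, a chain of the B cell receptor, was at 19.7 ± 20.3 and 23.0 ± 35.3 (limma adjusted p = 0.719).

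Of the Src family kinases, which phosphorylate the motif, 4 of 6 tested were called higher and 0 lower, against 23.2% of all genes called. The list median was 0.74. Src rose from 128 ± 53.5 to 331 ± 105 (log2 difference 1.38, SE 0.29, limma adjusted p = 0.0118), and Lyn, a kinase of myeloid and B cells, from 166 ± 29.9 to 248 ± 18.2 (0.59, SE 0.14, limma adjusted p = 0.0181). Fyn rose from 292 ± 72.8 to 486 ± 78.2 (limma adjusted p = 0.0218) and Fgr, a myeloid kinase, from 22 ± 9.26 to 47.4 ± 12.2 (limma adjusted p = 0.0313). The calls of Lyn (limma adjusted p = 0.0539) and Fyn (0.0675) were lost without knockout replicate 4, and that of Lyn also under the replicate block (0.0514). That of Fgr was lost in 6 of 8 such cases, without control replicate 2 (0.0789), 3 (0.0580) or 4 (0.0776) and without knockout replicate 1 (0.0786), 3 (0.0643) or 4 (0.0573).

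Adaptors and effectors around Syk were called higher for 9 of 32 tested genes and lower for 0, with a median of 0.63. This is 28.1% called, near the 23.2% of all genes. Pik3r5, a regulatory subunit of phosphoinositide 3-kinase, rose from 124 ± 22 to 227 ± 40.5 (log2 difference 0.87, SE 0.18, limma adjusted p = 0.0111). Lat2, a membrane scaffold of myeloid and B cells, rose from 31.3 ± 13.1 to 87.9 ± 20.8 (1.53, SE 0.33, limma adjusted p = 0.0129). Prkcb, a protein kinase C gene, rose from 30.0 ± 10.3 to 73.5 ± 20.3 (limma adjusted p = 0.0186, 0.0598 without knockout replicate 4), and Ptk2b, the kinase Pyk2, from 75.9 ± 18.3 to 143 ± 38.9 (limma adjusted p = 0.0194, 0.0545 without control replicate 2).

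Inhibitors of ITAM signalling act on the receptors or on the kinases. Of 31 genes tested on the list of ITIM receptors, phosphatases and other inhibitors, 15 were called higher and 2 lower, with a median of 0.97. This is 54.8% called, against 23.2% of all genes. Sirpa, the myeloid receptor of the CD47 signal, rose from 557 ± 110.1 to 1275 ± 231 (log2 difference 1.2, SE 0.17, limma adjusted p = 0.00422). Lilr4b, a leukocyte immunoglobulin-like receptor gene, is on the list although its product has no ITIM. It rose from 107 ± 40.0 to 277 ± 44.6 (1.44, SE 0.28, limma adjusted p = 0.00887). Dok1, a docking protein of inhibitory receptors, rose from 116 ± 29.2 to 219 ± 24 (limma adjusted p = 0.00912), and Csk, the kinase that restrains the Src family, from 279.9 ± 54.3 to 443 ± 22.9 (limma adjusted p = 0.00952). These 4 calls were kept in the fits that left out a library. The 2 lower genes are widely expressed: Ptpn11, the phosphatase SHP2, fell from 2574 ± 303 to 1881 ± 165 (log2 difference -0.45, SE 0.10, limma adjusted p = 0.0150) and Inppl1, the lipid phosphatase SHIP2, from 3202 ± 29.6 to 2644 ± 315 (-0.28, SE 0.09, limma adjusted p = 0.0482). Under the second scaling, neither was called (limma adjusted p = 0.0591 and 0.277). The call of Inppl1 was also lost under TMM scaling (0.0558), the replicate block (0.0987), no filter (0.0655), edgeR (edgeR adjusted p = 0.0791) and without any 1 library except knockout replicate 3 (0.0789 to 0.115).

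**Figure D5:**
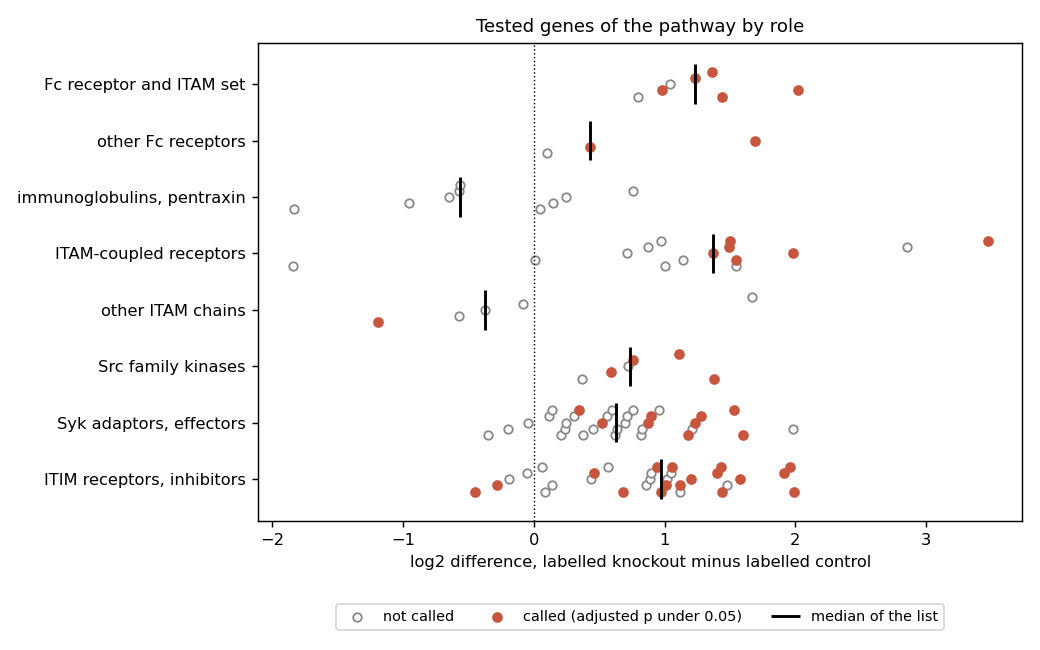
Log2 difference, knockout label minus control label (horizontal axis) for each tested gene of the set and of the 7 pathway lists, 1 row a list. Filled red points are genes that passed the limma test, open points genes not called, and the black line is the median of the list, from -0.56 for the immunoglobulin ligands to 1.37 for the ITAM-coupled receptors.

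The genomic neighbours on chromosome 1 were compared with the receptors among which they lie. The stretch from Fcgr2b to Fcer1g spans 276 kilobases. Of the 5 other tested genes inside it 0 were called by limma, edgeR or DESeq2, with a median log2 difference of -0.34. An unadjusted limma p under 0.05 was found for 2 of the 5, against 5741 of all 14949 genes. The genes named here were chosen after their values were seen. Sdhc, a subunit of the respiratory chain, was at 4927 ± 511 and 3898 ± 777 (limma adjusted p = 0.0856, but 0.0104 without knockout replicate 3). Within 500 kilobases on either side, 24 genes were tested, of which 6 were called higher and 3 lower, against 11.6% of all genes in each direction. Among the 6 were Olfml2b, an extracellular matrix gene (294 ± 108 and 1060.1 ± 330.3, limma adjusted p = 0.00456), Adamts4, an aggrecan-cleaving protease (25.4 ± 16.2 and 116 ± 31.7, limma adjusted p = 0.00828), and 3 genes of the SLAM family of leukocyte receptors. Another SLAM gene, Ly9, was not called (12.3 ± 7.01 and 27.2 ± 10.7, limma adjusted p = 0.109). Slamf7 rose from 6.65 ± 3.33 to 31.6 ± 4.68 (limma adjusted p = 0.00875), Cd48 from 23.1 ± 11.3 to 69.1 ± 22.1 (limma adjusted p = 0.0165), and Cd244a from 3.47 ± 3.57 to 26.6 ± 21.5 (limma adjusted p = 0.0229, lost without knockout replicate 1 or 4 and at a pseudocount of 0.1).

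The genes whose pattern was most like that of the set were sought among 11634 others with a mean count of at least 50. The measure was the root mean square distance between centred log2 profiles over the 8 libraries. Among the 5 nearest were Sema4a, a semaphorin (0.15 log2 units), Arhgap30, a GTPase-activating protein (0.16), Nckap1l, a haematopoietic actin regulator (0.17), and Csf2ra, a chain of the GM-CSF receptor (0.18). The median distance of all compared genes was 0.80. The members themselves lay between 0.22 for Tyrobp and 0.53 for Fcgr1 from their own mean profile, with Fcgr2b at 0.52 and Fcgr3 at 0.49, Fcer1g at 0.25, Plcg2 at 0.27 and Syk at 0.36. Arhgap30 is also among the chromosome 1 neighbours.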

How the data were processed

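Poly-A RNA of 8 knee joint samples was sequenced. Reads were aligned with HISAT2 to mm10 and counted per gene with featureCounts, per the submitters' processing notes, and normalised with DESeq2, per the series' design text. Versions, annotation and the filtering criteria are not given in the sources used here. The values the authors deposited are signal values, read counts divided by size factors. All values were whole multiples (tolerance 0.02) of the smallest positive value of their column, whose inverse equalled recomputed size factors to the 3 digits compared. In control replicate 2 and knockout replicate 1 that step (1.01 and 0.997) is too near 1 to show this alone.

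Values were transformed as log2(value + 1), so differences of scarce genes are understated. Genes at 10 or more in at least 4 libraries were fitted with limma 3.58.1 (group term, eBayes with trend) and adjusted by Benjamini-Hochberg over all genes tested. Single values were compared by exact two-sided permutation over 70 assignments, without a correction beyond that stated. Recovered reads were refitted with edgeR 4.0.16 and DESeq2 1.42.0. Other alternatives were pseudocounts of 0.1 and 5, no filter, TMM and the second (total count) scaling, the replicate block, a muscle covariate and leaving out each library. The fit was tested on simulated data. Groups come from sample titles. Symbols were matched to GENCODE M21 (20520 rows, 99.2%).

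The genes of the set were fixed by name, and the gene lists and alternatives were chosen with earlier results of these data known. From each pathway list, the up to 4 genes of smallest p and genes called against their list were named, from each marker list described the 2 of highest mean, and the 5 genes of most similar profile, except that 1 gene of the B cell list and 1 of similar profile are not reported here.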

Additional observations from a re-analysis of the deposited data

Results flagged for a closer look

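In 54 groups of 4 libraries, covering the genes of the set, Loxl2, the 5 ratios and the marker list sums, 6 had a library set apart from the other 3 by more of the range than Dixon's 95% limit. Chance gives about 1 in 20. Loxl2 reached 1135 in control replicate 3 against at most 349 in the other control libraries. The log2 ratio of Fcgr4 to Fcgr3 was -2.23 in control replicate 1 and at most -4.08 in the others, and that of Plcg2 to Syk was -1.0 in control replicate 2 and at most -1.49 in the others. Summed osteoclast markers were 15179 in control replicate 1 and at most 3623 in the other controls, the library that was also the highest control for Fcer1g, Tyrobp, Syk, Plcg2, Fcgr1 and Fcgr4. Summed cartilage markers were 37687 in control replicate 3 and at most 17726 in the other controls. Of that sum Prg4 held 29856. The mean log2 level of the list was instead the lowest of all 8 libraries there, at -1.09 from their mean. Summed platelet markers, which matter here because platelets carry Fcer1g with the collagen receptor GP6, were 678 in knockout replicate 2 and at most 337 in the others of its group.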

How the results depend on the processing

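Of the set, 5 genes were called by limma, and the count was 5 with both other pseudocounts, no filter, TMM, the second scaling, DESeq2 and the replicate block, the last with Syk in place of Fcgr3. It was 3 with edgeR (Fcgr2b, Fcer1g and Tyrobp) and 3 to 5 without 1 library, and those same 3 genes were called in each of these fits. With the mean of the skeletal muscle markers as a covariate, 0 of the set, 0 pathway genes and 0 of all genes were called by limma. At an unadjusted p under 0.05 there were then 0, 5 and 590. The group accounted for 85.2% of the variance of this covariate. The differences of the set stayed above 0 (0.10 to 1.95). All genes called went from 3461 to 2018 under the replicate block and to between 1751 and 3841 without 1 library, being 1887 without control replicate 2, 2194 without control replicate 4 and 1751 without knockout replicate 4. Pathway genes called went from 39 to between 18 (without knockout replicate 4) and 44, and 25 without control replicate 2. Relative to macrophage markers, the 1 call of the set (Fcgr2b) became 0 with the list of 3 markers (0 of the set at an unadjusted p under 0.05), and 0 to 1 without 1 library.

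Of the ratios, that of Fcgr1 to Fcgr3 (-0.19) turned to 0.37 without control replicate 1 and 0.00 without knockout replicate 4 (range -0.69 to 0.37), Fcgr4 to Fcgr3 (-0.54) to 0.24 without knockout replicate 3 (-1.34 to 0.24), and Tyrobp to Fcer1g (0.08) to -0.08 without control replicate 2 (-0.08 to 0.20). Under the replicate block, the smallest p of a sign-flip test of 4 pairs is 0.125, so no ratio could pass. Under the muscle covariate the log2 difference of Cd247 turned to 0.39, Cd79a 2.03, Fyn -0.15, Ighg2b 2.0, Jchain 2.25, Ly9 -0.60, Lyz2 -0.28, Sdhc 0.23 and Trim21 -0.14. That of Cd79a also turned with edgeR (0.21) and DESeq2 (0.23) and without control replicate 1 (0.01) or knockout replicate 4 (0.24; range without 1 library -1.54 to 0.24), that of Jchain without the same libraries (0.03 and 0.08; range -1.15 to 0.08), and that of Trim21 without control replicate 2 (-0.03; range -0.03 to 0.18). Under these settings none was called. The cause was not tested.

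Same-numbered libraries did not deviate together (correlations of 0.21, -0.12, -0.23 and -0.06), so the numbers are not taken as pairs. Fcgr1 and Fcgr4 had at most 47 reads in a library. The part of depth in the missing call of Fcgr1 was not tested.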
